A study of Mus musculus with 4 samples.

Results

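The subject is the respiratory chain of the ventricle, taken by complex and by the genome that encodes each subunit. Members were chosen by gene symbol: nuclear genes whose symbols begin with Ndufa, Ndufb, Ndufc, Ndufs, Ndufv, Uqcr, Cox4 to Cox8 or Atp5, the genes Sdha to Sdhd, and the mitochondrial genes mt-Nd, mt-Cytb, mt-Co and mt-Atp. This took 107 of the 32285 genes in the count tables, 94 of them nuclear and 13 mitochondrial. The nuclear members are 39 subunits of complex I, 4 of complex II, 8 of complex III, 18 of complex IV and 17 of complex V, plus 8 assembly factors of complex I (Ndufaf1 to Ndufaf8). Ndufb1-ps, taken among the 39 by its symbol, is annotated as a bidirectional promoter lncRNA and not as protein coding, and is singled out after its values were seen. The mitochondrial members are 7 subunits of complex I, 1 of complex III, 3 of complex IV and 2 of complex V.

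The data are single-cell RNA-seq of ventricles from mouse embryos on a C57BL/6 background at embryonic day 14.5, made with a 3' kit that counts unique molecular identifiers (UMIs). The 2 control libraries carried Tie2Cre with 1 floxed and 1 intact Ets1 allele (Tie2Cre; Ets1 fl/+). The 2 Ets1 endothelial knockout (eKO) libraries carried Tie2Cre with both Ets1 alleles floxed (Tie2Cre; Ets1 fl/fl). Each library pooled 3 ventricles from embryos that were not sexed. All 4 libraries therefore carried Tie2Cre, and control cells that recombined keep 1 intact allele. Tie2Cre acts in endothelium and endocardium, and also in blood lineages and in the cushion mesenchyme that endocardium gives rise to.

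The control libraries (replicates 1 and 2), followed by the Ets1 eKO libraries (replicates 1 and 2), held 12641, 7949, 10010 and 14951 cell barcodes with 124140739, 76931208, 95131419 and 102872196 UMIs. The median barcode had 8630, 8369, 8222 and 5632 UMIs in the same order, so that cells of Ets1 eKO replicate 2 were the shallowest. Filters on genes detected and on mitochondrial, ribosomal and globin shares kept 41669 cells, and marker genes that are not members placed them in classes: 4261 mural endocardial (mEndo-like), 1685 coronary vascular endothelial (cvEC-like), 663 valve endocardial (vEndo-like), 20840 cardiomyocyte-like, 8190 fibroblast-like, 499 epicardial-like and 892 immune-like cells. The remaining cells, among them erythroid cells and those whose 2 highest marker scores were close, entered no comparison. In the mEndo-like class 530 cells lay near the limit of a gate, 291 of them in Ets1 eKO replicate 2. The 6 pairs of libraries shared 24, 27, 47, 19, 35 and 39 barcodes. UMIs were summed per library and class, and all levels below are in counts-per-million (CPM) of the UMIs of the class after TMM scaling unless another unit is named. The library is the replicate, n = 2 for each group, and all classes come from the same 4 libraries.

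The respiratory chain sits in the inner mitochondrial membrane. Complexes I and II pass electrons to complex III, which hands them to complex IV by way of cytochrome c, and the proton gradient built by complexes I, III and IV drives ATP synthesis by complex V. Complexes I, III, IV and V combine subunits from nuclear and mitochondrial genes, while complex II is wholly nuclear. The muscle of the adult heart depends on the chain for most of its ATP, whereas the ventricles here were embryonic.

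Ets1 itself (chr9:32636221-32757820, plus strand, GRCm38) was measured first. In mEndo-like cells Ets1 stood at 272 and 261 CPM in control and at 126 and 99.2 CPM in Ets1 eKO libraries, a log2 fold change of -1.24 (SE 0.14). It fell past the threshold in all 3 endothelial classes, with adjusted p of 0.00186 for mEndo-like, 0.0289 for cvEC-like and 0.000835 for vEndo-like cells (edgeR quasi-likelihood test, Benjamini-Hochberg adjustment). Both Ets1 eKO libraries were below both controls in each of these classes, and the calls held without each library in turn. Fibroblast-like cells read 101 and 81.3 CPM in control and 65.1 and 62.0 CPM in Ets1 eKO libraries (log2 fold change -0.52, adjusted p = 0.292 by the same edgeR quasi-likelihood and Benjamini-Hochberg procedure). Cardiomyocyte-like cells went the other way, at 8.76 and 8.28 CPM in control and 10.1 and 12.2 CPM in Ets1 eKO libraries (log2 fold change 0.39). Epicardial-like cells were also above both controls (log2 fold change 0.51), and immune-like cells overlapped. None of these classes passed the test. Which exons are floxed was not given in the sources used here, and 3' UMIs may lie outside the deleted part, so the remaining counts do not measure intact transcript.

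Summed over all subunits, the UMIs of each genome were set against all UMIs of the class. In mEndo-like cells nuclear-encoded subunits made up 1.96% and 1.94% of UMIs in the control libraries and 2.34% and 2.22% in the Ets1 eKO libraries. Mitochondrially encoded subunits made up 4.01% and 4.11% in control and 3.11% and 3.29% in Ets1 eKO libraries. The groups did not overlap for either genome, and the log2 ratios of the group means were 0.23 and -0.34. In cardiomyocyte-like cells the nuclear share was 7.09% and 6.82% against 7.89% and 7.41%, and the mitochondrial share 6.15% and 6.14% against 4.89% and 4.76%. Again the groups were apart in both, with log2 ratios of 0.14 and -0.35.

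The other 5 classes gave log2 ratios of the same signs. In cvEC-like cells the log2 ratio was 0.12 for the nuclear and -0.30 for the mitochondrial share, in vEndo-like cells 0.13 and -0.19, in fibroblast-like cells 0.14 and -0.20, and in epicardial-like cells 0.20 and -0.21. In immune-like cells the nuclear share was 2.00% and 2.26% in control and 2.15% and 2.17% in Ets1 eKO libraries, so the groups overlapped (log2 ratio 0.02, or -0.07 without control replicate 1), while the mitochondrial share gave -0.23. Single libraries set the size of some mitochondrial ratios: in vEndo-like cells it was -0.03 without Ets1 eKO replicate 1 and -0.38 when Ets1 eKO replicate 2 was left out, and in fibroblast-like cells -0.09 and -0.33 in the same order. In all, the nuclear share was above both controls in 6 of 7 classes and the mitochondrial share below both controls in 7 of 7, by the least margin in vEndo-like cells (3.36% in Ets1 eKO replicate 2 against 3.37% in control replicate 2). With 2 libraries against 2, a two-sided exact permutation test cannot go below p = 0.33, so none was used on these sums.

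**Figure D1:**
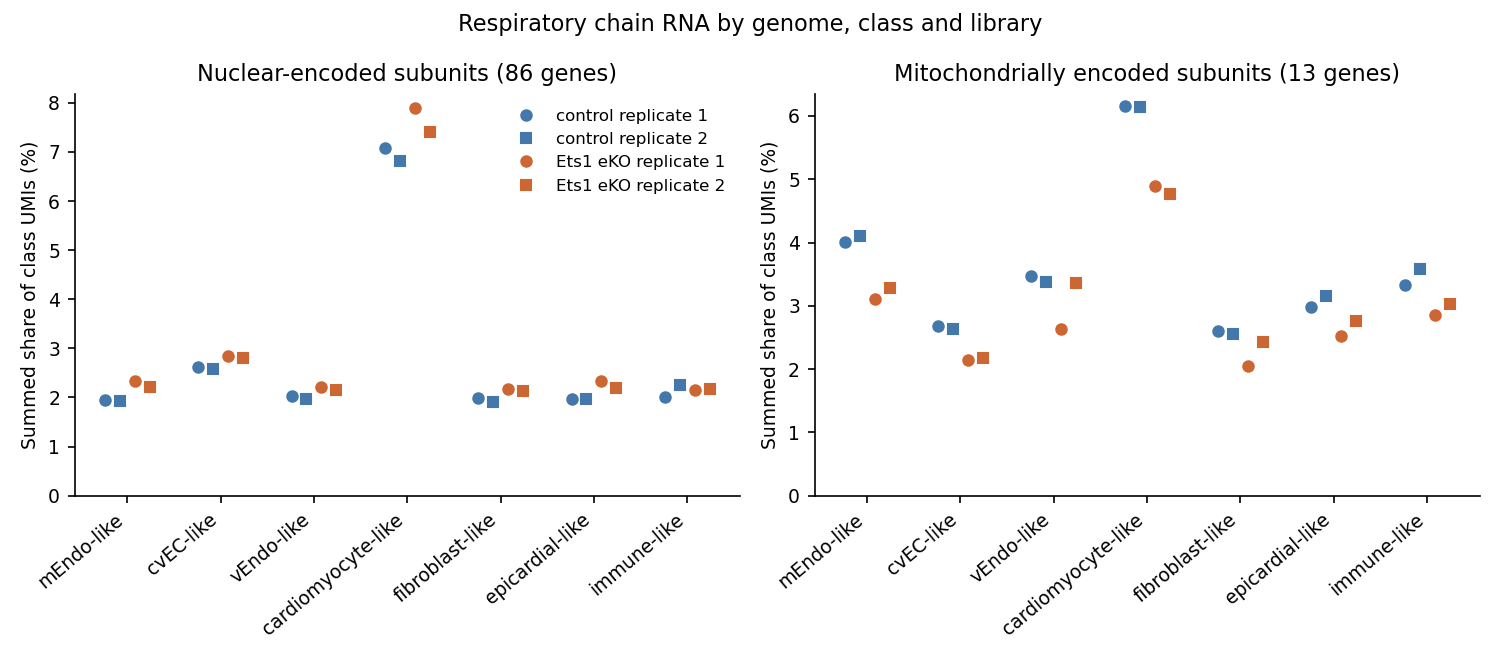
Share of UMIs (percent of all UMIs of the class and library) from nuclear-encoded and from mitochondrially encoded subunits, with 1 point for each of the 4 libraries in each of 7 classes. Nuclear shares of the Ets1 eKO libraries lie above both controls in 6 classes, and mitochondrial shares lie below both controls in 7.

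A share of a fixed total ties the genomes together, since fewer mitochondrial UMIs raise every other share. With mitochondrial genes removed from the total, the log2 ratio of the nuclear share was 0.21 in mEndo-like, 0.11 in cvEC-like, 0.13 in vEndo-like, 0.12 in cardiomyocyte-like, 0.13 in fibroblast-like, 0.20 in epicardial-like and 0.01 in immune-like cells. The ratio of mitochondrial to nuclear subunit UMIs, which does not use the total, was 2.05 and 2.12 in control and 1.33 and 1.48 in Ets1 eKO mEndo-like cells. In cardiomyocyte-like cells it was 0.868 and 0.900 against 0.619 and 0.642. This ratio was below both controls in all 7 classes, from a log2 ratio of -0.57 in mEndo-like to -0.25 in immune-like cells.

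Other quantities moved along with these shares. Cytosolic ribosomal proteins took 15.2% and 16.0% of UMIs in control and 17.8% and 16.3% in Ets1 eKO mEndo-like cells, and 12.3% and 12.2% against 14.3% and 13.7% in cardiomyocyte-like cells. Their share was above both controls in 7 of 7 classes. The limit of 20% mitochondrial UMIs per cell alone removed 800 and 431 cells of the control libraries and 404 and 535 cells of the Ets1 eKO libraries. The mEndo-like median depth was 6739 and 7309.5 UMIs per cell in control and 6773.5 and 4184 in Ets1 eKO libraries. Ribosomal share and depth were given as measurements, and their part in the shares of the chain was not tested.

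By complex, the nuclear sums of complexes I, III, IV and V were above both controls in 6 of 7 classes each. Complex II, which oxidises succinate and has no mitochondrial gene, overlapped between groups in 7 of 7 classes, with log2 ratios from -0.06 to 0.10. Its sum rests on 4 genes and 305000 UMIs, against 2052080 UMIs for the nuclear subunits of complex III. The 4 genes differed: log2 fold changes with TMM scaling were above 0 in 6 of 7 classes for Sdhb, 5 for Sdhc, 4 for Sdha and 1 for Sdhd. In mEndo-like cells complex V nuclear subunits made up 0.604% and 0.591% of UMIs in control and 0.726% and 0.700% in Ets1 eKO libraries, and complex I nuclear subunits 0.656% and 0.635% against 0.760% and 0.746%. The groups were apart in both, with log2 ratios of 0.26 and 0.22.

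The mitochondrial sums differed by complex as well. Complex IV subunits took 1.97% and 2.03% of mEndo-like UMIs in control and 1.45% and 1.52% in Ets1 eKO libraries, and complex V subunits 0.774% and 0.770% against 0.547% and 0.618%. Both were below both controls in 7 of 7 classes. Complex I subunits, at 0.767% and 0.812% against 0.742% and 0.687% in mEndo-like cells, were below in 4 of 7 classes, as were those of complex III. The assembly factors of complex I, which are not part of the finished enzyme, were above in 3 classes and overlapped in 4.

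**Figure D2:**
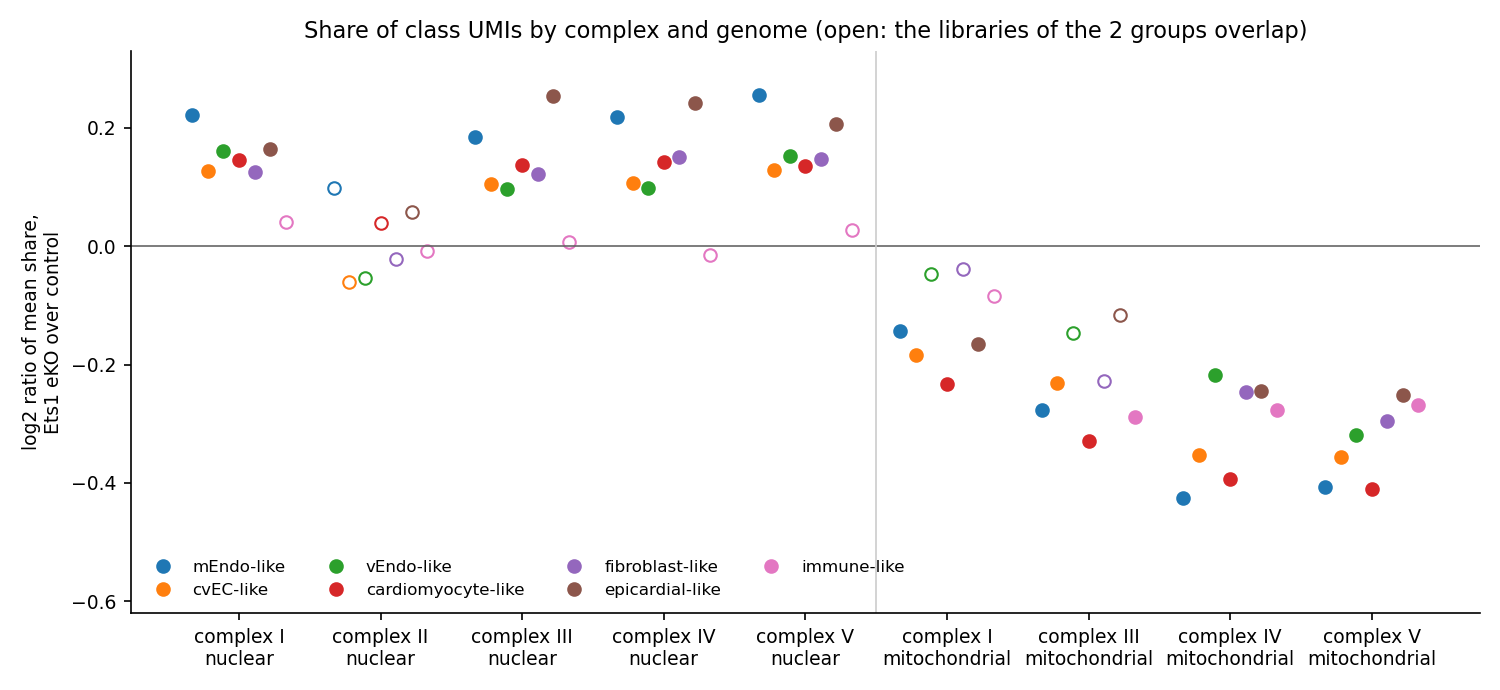
Log2 ratio of the mean UMI share, Ets1 eKO over control (n = 2 libraries each), for nuclear and mitochondrial sums of each complex in 7 classes, 1 marker for each class, open where the libraries of the groups overlap. Complex II lies around 0 (from -0.06 to 0.10), and mitochondrial complexes IV and V lie below 0 in every class.

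Gene by gene, 105 of the 107 members passed the filter on low counts in mEndo-like cells, 92 nuclear and 13 mitochondrial. Of the nuclear members 86 had a log2 fold change above 0, with a median of 0.26, against a median of 0.00 over the 12964 genes tested. The mitochondrial members had a median of -0.23 (-0.08 without control replicate 2), with 9 of 13 below 0. In the Ets1 eKO libraries 56 of 92 nuclear members were above both controls, where 24.7% of all genes tested were, and 7 of 13 mitochondrial members were below both, where 27.6% of all genes were. The medians by complex were 0.26 for complex I (38 of 39 above 0), 0.12 for complex II (3 of 4), 0.22 for complex III (7 of 8), 0.29 for complex IV (14 of 16), 0.30 for complex V (17 of 17) and 0.26 for the assembly factors (7 of 8). With total count scaling 37 of 39, 13 of 16 and 17 of 17 were above 0 for complexes I, IV and V. Cytosolic ribosomal protein genes had a median of 0.17 in this class.

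Across the other classes the medians of nuclear and mitochondrial members were 0.22 and -0.16 in cvEC-like, 0.19 and -0.10 in vEndo-like, 0.25 and -0.22 in cardiomyocyte-like, 0.22 and -0.09 in fibroblast-like, 0.30 and -0.04 in epicardial-like, and 0.07 and -0.14 in immune-like cells. The median over all genes tested was 0.02 or less in each. Nuclear members above both controls numbered 30 of 92 in cvEC-like cells (22.2% of all genes), 26 of 88 in vEndo-like (20.6%), 43 of 93 in cardiomyocyte-like (22.7%), 43 of 93 in fibroblast-like (22.1%), 43 of 85 in epicardial-like (18.8%) and 8 of 88 in immune-like cells (16.7%). Mitochondrial members below both controls numbered 6 of 13 (23.2% of all genes), 3 of 13 (21.3%), 7 of 13 (25.1%), 2 of 13 (22.9%), 4 of 13 (17.9%) and 5 of 13 (15.9%) in the same order. Signs of these medians were the same with DESeq2 size factors and with total counts. Total count scaling moved the median of all genes from 0.01 to -0.09 in cardiomyocyte-like cells, where the nuclear and mitochondrial medians then read 0.14 and -0.33. With that scaling they read 0.13 and -0.24 in cvEC-like, 0.12 and -0.18 in fibroblast-like, 0.21 and -0.12 in epicardial-like and 0.03 and -0.19 in immune-like cells. The median of the 4 complex II genes lay between -0.08 in cvEC-like and 0.19 in epicardial-like cells, and total count scaling turned it negative in cardiomyocyte-like, fibroblast-like and immune-like cells. Single libraries moved the mitochondrial median in cvEC-like cells to -0.27 and -0.05, in cardiomyocyte-like cells to -0.34 and -0.12 and in epicardial-like cells to -0.10 and -0.19, without Ets1 eKO replicate 1 and without replicate 2 of that group in this order. It was -0.11 in epicardial-like cells without control replicate 1, -0.04 in immune-like cells without control replicate 2, -0.01 in vEndo-like cells without Ets1 eKO replicate 1 and -0.04 in fibroblast-like cells without Ets1 eKO replicate 2. The nuclear median was 0.15 in cardiomyocyte-like and 0.04 in immune-like cells without Ets1 eKO replicate 2, and 0.14 in fibroblast-like and 0.19 in immune-like cells without control replicate 2. Leaving out 1 library turned the mitochondrial median to 0.00 in vEndo-like cells (without control replicate 1) and to 0.02 in fibroblast-like cells (without control replicate 1 or without Ets1 eKO replicate 1), and the nuclear median to -0.04 in immune-like cells (without control replicate 1).

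Few single members passed the test with low-count genes filtered out and all libraries kept. At an adjusted p of 0.05, edgeR's quasi-likelihood test called 1 of 105 members in mEndo-like cells, where it called 3.14% of all genes, and 1 of 105 in cvEC-like cells, where it called 0.5%. Over the alternatives the count in mEndo-like cells ran from 1 to 12, with 12 when no low-count filter was applied and 1208 of 20867 genes were called. It called 0 of 101 members in vEndo-like cells (0.531% of all genes; 3 members and 1068 of 9606 genes at an unadjusted p under 0.05), 0 of 106 in cardiomyocyte-like cells (0% of all genes; 4 members and 1769 of 16738 genes), 0 of 106 in fibroblast-like cells (0.02%; 5 members and 1638 of 15027 genes), 0 of 98 in epicardial-like cells (0.0454%; 14 members and 596 of 8807 genes) and 0 of 101 in immune-like cells (0.128%; 2 members and 462 of 9386 genes). DESeq2 called 3 members in mEndo-like cells (Cox6b2, Atp5g1 and mt-Co3), where it called 383 of 20867 genes, and 0 in each of the other 6 classes, where it called from 0 to 106 genes. In mEndo-like cells 28 members had an unadjusted p under 0.05, 27 of them with a higher level in Ets1 eKO libraries, as did 2691 of the 12964 genes tested, 1287 of them with a higher level.

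The counts of calls moved with single libraries. In mEndo-like cells 8 members were called without Ets1 eKO replicate 1, where 4.22% of all genes were, and 9 when Ets1 eKO replicate 2 was left out instead, where 1.77% were. In cvEC-like cells the count was 0 when control replicate 1 was left out (0.905% of all genes), 22 when Ets1 eKO replicate 1 was (7.81%), and 11 when Ets1 eKO replicate 2 was (2.53%). All genes called in that class went from 58 to 955 with Ets1 eKO replicate 1 left out. Cardiomyocyte-like cells gave 14 without Ets1 eKO replicate 1, where 11.9% of all genes were called, and 7 without Ets1 eKO replicate 2 (0.537%), and vEndo-like cells gave 3 without Ets1 eKO replicate 2 (1.22%). A single call appeared in fibroblast-like cells without control replicate 1, in epicardial-like cells when either of the Ets1 eKO libraries was left out, and in immune-like cells when control replicate 1, Ets1 eKO replicate 1 or Ets1 eKO replicate 2 was. All genes called were 1.79% in the first of these fits, 0.645% and 0.47% in the epicardial-like and 0.621%, 0.541% and 1.11% in the immune-like ones.

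The member called in mEndo-like cells was Cox6b2 (chr7:4751792-4753094, minus strand), known as the testis isoform of a complex IV subunit whose widespread form is Cox6b1. Its level was 10.7 and 9.20 CPM in control and 21.3 and 23.0 CPM in Ets1 eKO libraries, from 90, 56, 150 and 179 UMIs. Both Ets1 eKO libraries were above both controls. The log2 fold change was 1.15 (SE 0.18, adjusted p = 0.0103 by edgeR quasi-likelihood with Benjamini-Hochberg adjustment), with adjusted p from 1.93e-06 to 0.0452 over the alternatives. As a share of the UMIs of Cox6b1 and Cox6b2 together, it was 2.40% and 1.95% in control and 3.58% and 4.45% in Ets1 eKO mEndo-like cells, so Cox6b1 supplied most of the UMIs in every library.

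Cox6b2 was not highest in mEndo-like cells. It stood at 128, 94.3, 155 and 111 CPM in epicardial-like cells, in the order of libraries used above, and 30.6, 30.0, 35.6 and 34.3 CPM in fibroblast-like cells. It was 20.7, 16.5, 27.1 and 20.0 CPM in cardiomyocyte-like cells and 2.73, 2.74, 4.77 and 5.27 CPM in cvEC-like cells. In vEndo-like cells, the third endothelial class, it read 36.9, 24.6, 42.4 and 26.8 CPM, higher than in mEndo-like cells, with a log2 fold change of 0.15. The groups were apart in fibroblast-like and cvEC-like cells and overlapped in epicardial-like, cardiomyocyte-like and vEndo-like cells, and in none of these 5 classes did it pass the test.

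The difference of the eKO effect between classes was tested in a model with library as a term. Between mEndo-like and fibroblast-like cells 1 of 106 members was called, Cox6b2, where 1.67% of all genes were called and 1.21% were called with a larger effect in mEndo-like cells. Its effect was larger by 0.98 in mEndo-like cells (log2, SE 0.18, adjusted p = 0.0181 by edgeR quasi-likelihood with Benjamini-Hochberg adjustment, from 0.000188 to 0.303 over the alternatives). DESeq2 called 0 members in this comparison (adjusted p = 0.303 for Cox6b2, Wald test), and the count was 4 without control replicate 1, 2 without control replicate 2 and 0 without Ets1 eKO replicate 2, where all genes called numbered 898, 811 and 239 against 246 with all libraries. Between mEndo-like and cardiomyocyte-like cells edgeR called 0 of 106 members, where it called 0.306% of all genes, with 2 members at an unadjusted p under 0.05 (1558 of 16345 genes) and 0 called by DESeq2 (78 of 24959 genes). There the difference for Cox6b2 was 0.85 (SE 0.21, adjusted p = 0.20 by edgeR quasi-likelihood with Benjamini-Hochberg adjustment), and without Ets1 eKO replicate 1 the count was 1, with 304 of all genes called against 50. The median difference over all nuclear members was 0.04 against cardiomyocyte-like and 0.09 against fibroblast-like cells.

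The member called in cvEC-like cells was Ndufa4l2 (chr10:127514967-127517154, plus strand), a paralogue of Ndufa4. Both were counted under complex I by symbol, although Ndufa4 is now placed with complex IV. Its level was 5.31 and 6.99 CPM in control and 14.6 and 17.2 CPM in Ets1 eKO libraries, from 33, 23, 58 and 85 UMIs. Both Ets1 eKO libraries were above both controls, with a log2 fold change of 1.41 (SE 0.26, adjusted p = 0.0497 by edgeR quasi-likelihood with Benjamini-Hochberg adjustment, from 3.07e-05 to 0.221 over the alternatives). The call was lost with DESeq2 (adjusted p = 0.221) and with a mitochondrial limit of 10% (0.0503), both by Benjamini-Hochberg adjustment. It was also lost with cells of 2 close marker scores kept (0.0570, same adjustment) and without control replicate 1. In mEndo-like cells Ndufa4l2 read 6.52 and 4.93 CPM against 12.5 and 7.98 CPM and did not pass the test, and in fibroblast-like cells it read 63.4, 42.8, 63.9 and 67.2 CPM.

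**Figure D3:**
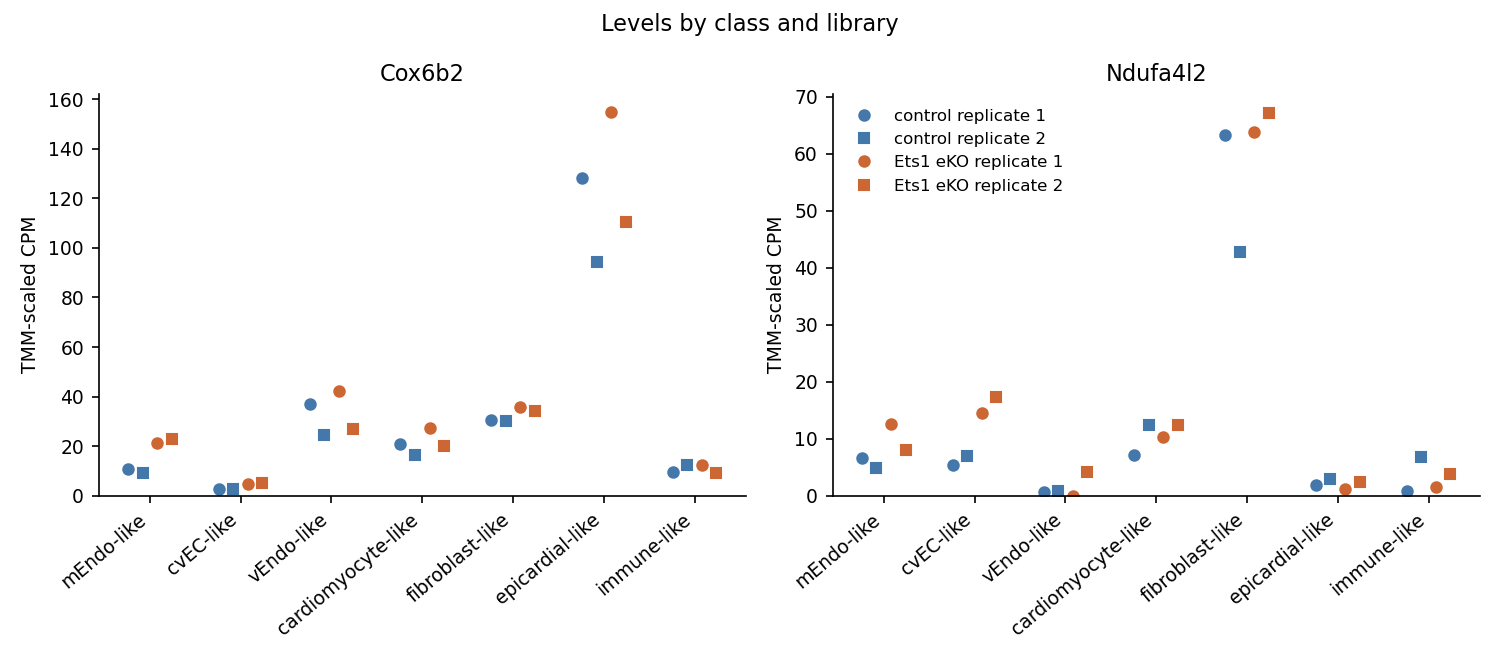
Levels of Cox6b2 and Ndufa4l2 (TMM-scaled CPM, linear axis from 0) in each of the 4 libraries and 7 classes, 1 point for each library. In mEndo-like cells Cox6b2 lies at 10.7 and 9.20 in control and at 21.3 and 23.0 in Ets1 eKO libraries, below its levels in epicardial-like cells.

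Marker lists of other cell types, cycling genes and the RNA quality genes Neat1, Malat1 and Gm42418 were measured beside these calls. Levels are in CPM without TMM scaling, summed over each list. The 5 smooth muscle and pericyte genes, led by Abcc9 and with 0 of them at 0, summed to 12.5 and 10.7 CPM in control and 34.7 and 27.0 in Ets1 eKO mEndo-like cells, and overlapped in cvEC-like cells (175, 142, 153 and 134). The sum was also above both controls in vEndo-like cells (4.75, 5.12, 12.4 and 11.0, from 7, 6, 13 and 11 UMIs), below both in cardiomyocyte-like cells (97.4, 97.5, 88.7 and 79.4) and in fibroblast-like cells, where Rgs5 led it (146, 129, 101 and 72.1), and overlapped in epicardial-like and immune-like cells. In mEndo-like cells Abcc9 alone had 66, 49, 211 and 183 UMIs and rose (adjusted p = 0.00179 by edgeR quasi-likelihood with Benjamini-Hochberg adjustment), and Kcnj8 had 8, 5, 16 and 20 (log2 fold change 1.42, adjusted p = 0.112 by the same test), while Rgs5 had 7, 1, 11 and 5, Myh11 4, 4, 1 and 2 and Cspg4 18, 6, 8 and 5. In cvEC-like cells Abcc9 had 763, 329, 428 and 456 UMIs and Kcnj8 289, 124, 189 and 224, beside 1, 1, 1 and 1 of Rgs5, so in these classes the sum mostly follows Abcc9. The 10 cardiomyocyte genes, led by Myl2 and with 0 at 0, overlapped in mEndo-like cells (1278, 516, 724 and 1134 CPM) and in cvEC-like cells (1174, 396, 521 and 1310). In epicardial-like cells the same list, there led by Myl7, was higher in both Ets1 eKO libraries (1644, 1262, 2216 and 2473). The 6 cycling genes in mEndo-like cells, led by Top2a, read 366, 541, 544 and 691 CPM, with both Ets1 eKO libraries above both controls. They were below both controls in cvEC-like cells (1009, 1009, 967 and 940) and in vEndo-like cells (853, 987, 585 and 632), and overlapped in the other 4 classes. The 7 erythroid genes, led by Hbb-bs, overlapped in mEndo-like cells (188, 87.9, 174 and 241), where Hbb-y rose (adjusted p = 0.0453 by edgeR quasi-likelihood with Benjamini-Hochberg adjustment). In cvEC-like cells the sum was higher in both Ets1 eKO libraries (138, 64.9, 140 and 178), as it was in vEndo-like, fibroblast-like, epicardial-like and immune-like cells. Abcc9, Hbb-y and the other single genes of these lists were picked out after their values were seen. Neat1 was higher in both Ets1 eKO libraries in mEndo-like cells (9.01, 8.56, 13.9 and 11.8 CPM) and in cvEC-like cells (9.90, 15.3, 16.9 and 16.6), and lower in both in fibroblast-like, epicardial-like and immune-like cells. Malat1 overlapped in mEndo-like cells (11412, 9841, 14385 and 9832 CPM), and Gm42418 was lower there in the Ets1 eKO libraries (4908, 5568, 4834 and 4410; log2 ratio -0.18). Gm42418 was also below both controls in cardiomyocyte-like (-0.52), fibroblast-like (-0.38) and immune-like cells (-0.28), and overlapped in the other 3 classes. The part of these RNAs in the calls was not tested.

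Among the 13 mitochondrial genes, mt-Co3, a core subunit of complex IV, was below both controls in 7 of 7 classes, with a median log2 fold change of -0.38. In mEndo-like cells it read 6903 and 8435 CPM in control and 5327 and 5642 CPM in Ets1 eKO libraries (log2 fold change -0.48, SE 0.18, or -0.31 without control replicate 2). It did not pass edgeR's quasi-likelihood test (adjusted p = 0.156, Benjamini-Hochberg, from 0.0101 to 0.710 over the alternatives), and DESeq2 called it (adjusted p = 0.0424). The complex I subunit mt-Nd1 and the complex V subunit mt-Atp6 were below both controls in 6 classes, mt-Nd2 in 5, mt-Co1 and mt-Co2 in 4 and mt-Cytb, the mitochondrial subunit of complex III, in 2 with TMM scaling (4 as a share of all UMIs of the class, given above for complex III).

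Of the other 6 mitochondrial genes, mt-Nd3 also had log2 fold changes below 0 in 7 of 7 classes under each scaling (median -0.53), though its groups overlapped in each. The complex I subunit mt-Nd4l had log2 fold changes above 0 in 7 of 7 classes under each scaling, with a median of 0.65, and read 291 and 229 CPM in control against 517 and 310 CPM in Ets1 eKO mEndo-like cells. These groups were apart (log2 fold change 0.67, SE 0.22, adjusted p = 0.127 by edgeR quasi-likelihood with Benjamini-Hochberg adjustment; from 0.000246 to 0.466 over the alternatives). In cardiomyocyte-like cells they overlapped, at 600 and 472 against 1001 and 561 CPM (log2 fold change 0.54). Without Ets1 eKO replicate 1 these fold changes were 0.25 and 0.06, and with Ets1 eKO replicate 2 left out they were 0.99 and 0.90 and both passed the test (adjusted p = 0.0151 and 0.0417 by edgeR quasi-likelihood with Benjamini-Hochberg adjustment, the latter ranging up to 1.00 over the alternatives). Median log2 fold changes of mt-Nd5, mt-Nd4, mt-Atp8 and mt-Nd6 were 0.15, 0.11, 0.15 and 0.07, above 0 in 7, 7, 7 and 6 classes with TMM and in 6, 4, 6 and 3 with total count scaling. Of these genes mt-Nd4l overlaps mt-Nd4, mt-Atp8 overlaps mt-Atp6, and mt-Nd5 and mt-Nd6 overlap on opposite strands. How UMIs were split within each pair was not tested.

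**Figure D4:**
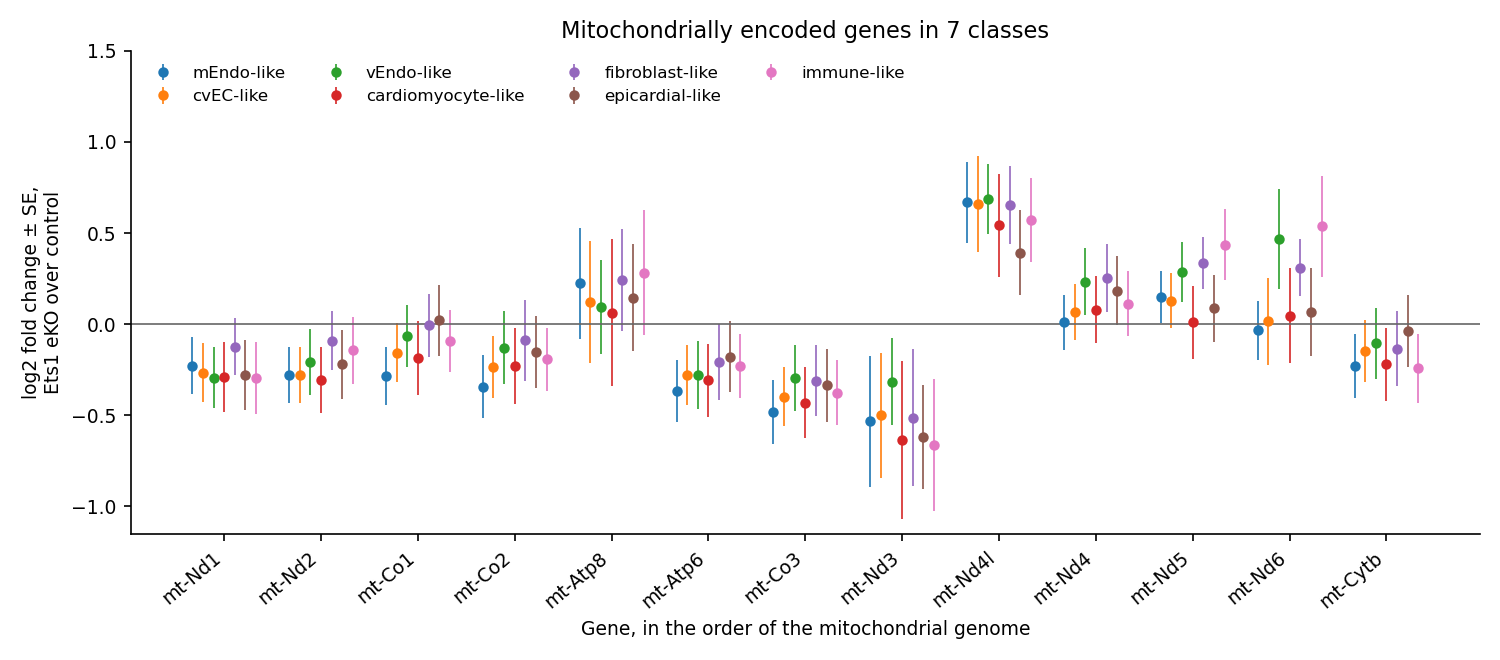
Log2 fold change (Ets1 eKO over control, bars are the SE, n = 2 libraries a group) of the 13 mitochondrial genes in gene order along the mitochondrial genome, 1 marker for each of 7 classes. mt-Co3 lies below 0 and mt-Nd4l above 0 in all 7 classes.

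The 2 Ets1 eKO libraries differed from each other in a group of members, which were chosen after their values were seen. Atp5k, a complex V subunit, read 119 and 150 CPM in control and 283 and 103 CPM in Ets1 eKO mEndo-like cells, and 602 and 717 against 1274 and 470 CPM in cardiomyocyte-like cells. Ndufb1-ps, an annotated lncRNA with the name of a complex I subunit, read 121 and 134 against 208 and 93.3 CPM and 283 and 298 against 479 and 206 CPM in those classes. In each case Ets1 eKO replicate 1 was the highest and Ets1 eKO replicate 2 the lowest of the 4 libraries, so the groups overlapped. mt-Atp8 had the same order, at 72.7 and 71.7 against 119 and 49.5 CPM in mEndo-like cells. mt-Nd3, a mitochondrial subunit of complex I, read 305 and 549 CPM in control and 418 and 172 CPM in Ets1 eKO mEndo-like cells, lowest in Ets1 eKO replicate 2 and highest in control replicate 2, and overlapped in 7 of 7 classes. Without Ets1 eKO replicate 2, the calls in mEndo-like cells were Cox6b2, Atp5k, Atp5md, Atp5mpl, Ndufa3, Ndufb1-ps, Ndufc1, mt-Atp8 and mt-Nd4l. Without Ets1 eKO replicate 1 they were Cox6b2, Atp5d, Atp5g1, Cox5a, Ndufb10, Ndufs7 and Uqcrfs1, which were higher in the remaining Ets1 eKO library, and mt-Nd3, which was lower. Those outside the complexes' most abundant members and the mitochondrial genome are named here only because these calls were seen.

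Over all nuclear members of mEndo-like cells, the highest of the 4 libraries was Ets1 eKO replicate 1 for 42.4% and Ets1 eKO replicate 2 for 53.3%, where these libraries were the highest for 21.1% and 29.4% of all genes tested. In cardiomyocyte-like cells the shares were 45.2% and 52.7%, against 23.0% and 32.8% of all genes. Control replicate 1 was the highest for 4 and control replicate 2 for 0 of 92 nuclear members in mEndo-like cells.

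Of the nuclear members with levels apart in many classes, Cox5b, a complex IV subunit, was above both controls in 7 of 7 classes. It read 285 and 290 CPM in control and 376 and 356 CPM in Ets1 eKO mEndo-like cells, and its log2 fold change was above 0 in 7 classes under each scaling. Ndufb6, an accessory subunit of complex I, was above both controls in 6 classes, with an unadjusted p under 0.05 in 4. Its mEndo-like levels were 101 and 87.9 CPM against 120 and 132 CPM (log2 fold change 0.42, SE 0.13, adjusted p = 0.105 by edgeR quasi-likelihood with Benjamini-Hochberg adjustment). Both were chosen after their values were seen. Atp5g1, which encodes subunit c of the complex V rotor, read 306 and 302 CPM against 389 and 478 CPM in mEndo-like cells (log2 fold change 0.51, SE 0.14, adjusted p = 0.0805 by edgeR quasi-likelihood with Benjamini-Hochberg adjustment, or 0.0225 by DESeq2 and 0.0248 without Ets1 eKO replicate 1, from 0.00927 to 0.310 over the alternatives). The groups were apart for all 3 genes in mEndo-like cells.

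Other members were taken for having the most UMIs of their complex over all classes, and their levels in mEndo-like cells follow. Sdhb, the iron-sulfur subunit of complex II, read 78.2 and 72.3 CPM in control and 85.6 and 105 CPM in Ets1 eKO libraries. Uqcrh, a small subunit of complex III, read 555 and 553 against 593 and 592 CPM, and Atp5b, the catalytic beta subunit of complex V, 378 and 387 against 388 and 474 CPM. These 3 had groups that were apart, and none passed the test. Sdha, which holds the flavin of complex II, read 85.6 and 84.6 against 88.7 and 96.3 CPM, and Sdhc, a membrane anchor, 58.0 and 55.2 against 59.0 and 63.6 CPM. Both were apart in mEndo-like cells and above both controls in 2 of 7 classes each, and Sdha was below both in 1. Uqcr10, a small subunit of complex III, overlapped at 247 and 303 against 416 and 298 CPM and was above both controls in 1 of 7 classes. None of Sdha, Sdhc and Uqcr10 passed the test. Sdhd, which anchors complex II in the membrane and was chosen after its values were seen, had log2 fold changes below 0 in 6 of 7 classes under each scaling, with a median of -0.22 and groups that overlapped in all 7.

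For the promoters of nuclear members, RefSeq sequences of 300 bases (250 before and 50 after the start site, GRCm38.p6) were found for 77 of the 94. They were searched on both strands for the core of ETS family sites, CCGGAAG, which reads CTTCCGG on the opposite strand, and for the core of the site of nuclear respiratory factor 1, GCGCATGC, which reads GCATGCGC on the opposite strand and can overlap itself where both strands match. The ETS core was in 19 of 77 promoters (24.7%), and in 9.93% of the promoters of 27025 genes. The nuclear respiratory factor 1 core was in 12 of 77 (15.6%), and in 3.05% of all promoters. Both were in 5: Atp5k, Atp5l, Cox6a1, Sdhb and Uqcr11. A match is a description of letters in this window and not a site of binding. Shown first is Cox6b2, the member called in mEndo-like cells, which held no match, then Ndufb6 with the ETS core, and then 4 of the 5 promoters with both cores, all 5' to 3' on the strand of the gene with matches in capitals. Cox6b2 lies at chr7:4753045-4753344 (minus strand), Ndufb6 at chr4:40279372-40279671 (minus), Sdhb at chr4:140961021-140961320 (plus), Uqcr11 at chr10:80406772-80407071 (minus), Cox6a1 at chr5:115348909-115349208 (minus) and Atp5k at chr5:108434350-108434649 (minus).
Cox6b2: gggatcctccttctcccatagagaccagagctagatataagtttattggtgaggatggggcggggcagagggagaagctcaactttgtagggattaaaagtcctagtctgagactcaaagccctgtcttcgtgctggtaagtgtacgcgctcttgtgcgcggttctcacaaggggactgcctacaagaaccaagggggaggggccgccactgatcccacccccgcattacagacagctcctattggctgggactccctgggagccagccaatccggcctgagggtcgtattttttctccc
Ndufb6: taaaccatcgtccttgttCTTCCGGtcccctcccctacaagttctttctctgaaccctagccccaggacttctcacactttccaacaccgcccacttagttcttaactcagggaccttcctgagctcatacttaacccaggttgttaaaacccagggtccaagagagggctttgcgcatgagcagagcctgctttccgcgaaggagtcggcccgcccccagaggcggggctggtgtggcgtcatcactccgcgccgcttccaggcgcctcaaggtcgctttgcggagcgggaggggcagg
Sdhb: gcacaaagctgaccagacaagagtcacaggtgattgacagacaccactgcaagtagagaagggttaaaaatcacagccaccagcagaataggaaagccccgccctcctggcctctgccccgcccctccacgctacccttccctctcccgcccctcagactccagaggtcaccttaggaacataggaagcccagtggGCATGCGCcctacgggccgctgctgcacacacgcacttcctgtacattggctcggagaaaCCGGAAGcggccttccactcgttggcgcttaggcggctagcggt
Uqcr11: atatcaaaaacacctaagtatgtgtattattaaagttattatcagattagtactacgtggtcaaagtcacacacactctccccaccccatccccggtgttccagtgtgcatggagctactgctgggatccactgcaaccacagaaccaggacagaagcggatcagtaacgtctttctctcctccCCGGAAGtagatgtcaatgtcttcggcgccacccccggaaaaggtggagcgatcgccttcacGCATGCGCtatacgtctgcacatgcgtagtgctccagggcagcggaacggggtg
Cox6a1: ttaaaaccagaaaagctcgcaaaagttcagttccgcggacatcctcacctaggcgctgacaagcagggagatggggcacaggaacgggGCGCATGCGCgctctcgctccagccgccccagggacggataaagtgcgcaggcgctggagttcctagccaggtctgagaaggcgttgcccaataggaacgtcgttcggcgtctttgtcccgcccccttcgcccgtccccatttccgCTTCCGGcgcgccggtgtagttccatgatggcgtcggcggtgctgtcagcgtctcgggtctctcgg
Atp5k: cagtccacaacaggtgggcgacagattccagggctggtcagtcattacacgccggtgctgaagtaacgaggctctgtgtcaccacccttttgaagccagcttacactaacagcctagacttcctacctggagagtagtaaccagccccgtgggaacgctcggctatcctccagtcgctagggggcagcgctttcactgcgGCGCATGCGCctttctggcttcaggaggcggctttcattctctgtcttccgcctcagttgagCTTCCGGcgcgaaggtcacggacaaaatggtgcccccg
In Cox6a1 and Atp5k the matches to the nuclear respiratory factor 1 core on the 2 strands overlap and appear as 1 run of capitals.

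Cell types of the same libraries were then compared. Cardiomyocyte-like cells had higher levels than mEndo-like cells for 106 of 106 members tested, where 38.9% of all genes tested were called higher (75.2% in either direction). The 106 include Cox7b2, which passed the low-count filter here but not within mEndo-like cells, so its direction was set by that filter. DESeq2 called the same number of members and edgeR with total count scaling called 103, and the shares of all genes in those fits are not given here. The median log2 fold change was 2.10 for nuclear and 1.17 for mitochondrial members, against 0.03 over all genes. By complex the nuclear medians were 2.01 for complex I, 2.23 for II, 2.29 for III, 2.15 for IV and 2.33 for V, and 1.43 for the assembly factors of complex I. Mitochondrial genes ranged from 0.78 to 1.39.

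The widest gaps were in muscle isoforms of complex IV. Cox6a2, the heart and skeletal muscle form of a subunit whose other form is Cox6a1, was higher by 5.90 (log2, SE 0.19, adjusted p = 2.24e-08 by edgeR quasi-likelihood with Benjamini-Hochberg adjustment), Cox7a1 by 5.17 (SE 0.15) and Cox8b by 5.07 (SE 0.11). Among nuclear members the smallest differences were those of Cox7a2l, a factor in the joining of complexes III and IV (0.46), Ndufaf2 (0.60), Ndufa4l2 (0.74) and Cox6b2 (0.78). Ndufaf2 was chosen after its values were seen.

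**Figure D5:**
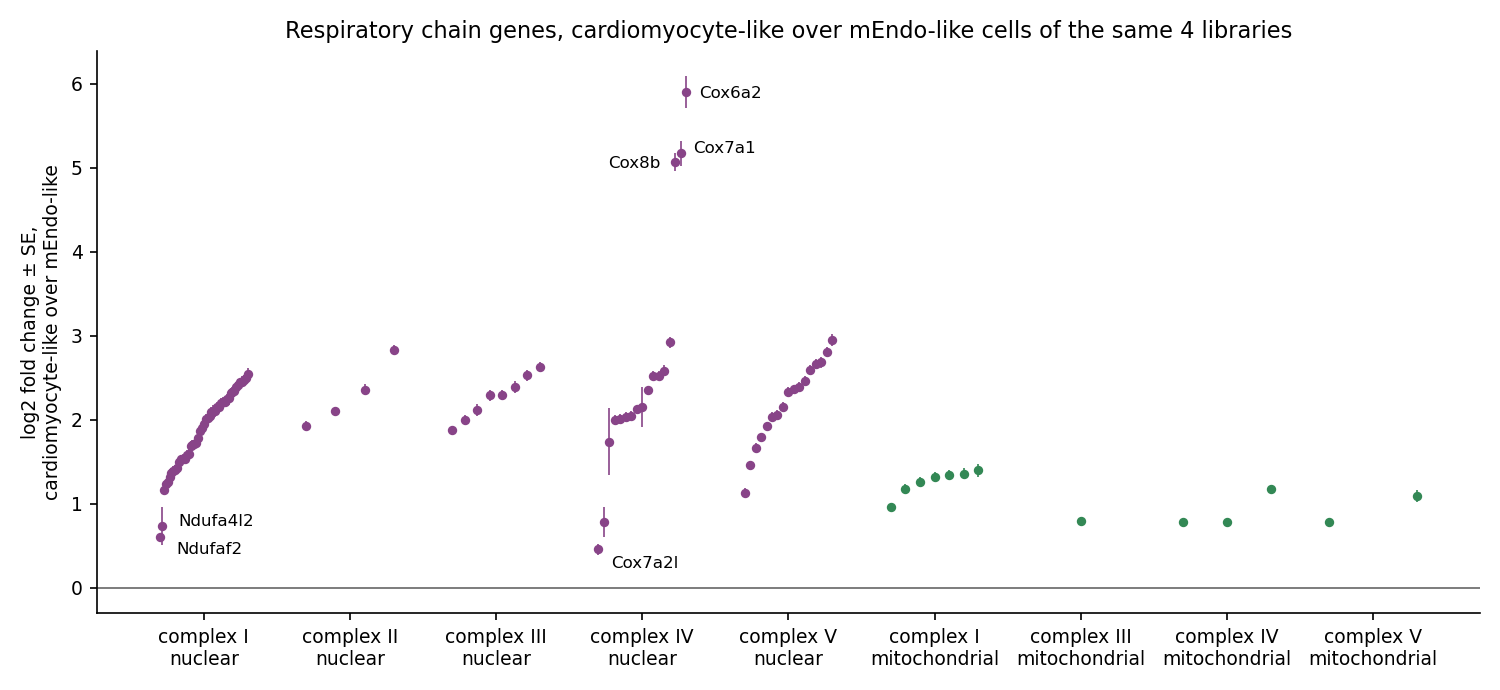
Log2 fold change (± SE) of each member tested, cardiomyocyte-like over mEndo-like cells of the same 4 libraries, by complex and genome. All 106 lie above 0, with Cox6a2 at 5.90, Cox7a1 at 5.17 and Cox8b at 5.07. For Cox7b2, which did not pass the low-count filter within mEndo-like cells, the filter set the direction. The part of cardiomyocyte RNA in the mEndo-like levels was not tested.

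Isoform use, as the mean share over the 4 libraries, followed cell type. Cox6a2 made up 60.8% of the UMIs of Cox6a1 and Cox6a2 in cardiomyocyte-like cells and 9.49% in mEndo-like cells, which also held the cardiomyocyte RNA given above, whose part in this share was not tested. Atp5g1 made up 51.4% of the 3 genes for subunit c in cardiomyocyte-like and 32.1% in mEndo-like cells. In fibroblast-like cells Cox4i2 reached 6.87% of the Cox4 pair and Ndufa4l2 10.5% of its pair, and Cox6b2 made up 21.1% of the Cox6b pair in epicardial-like cells. In cardiomyocyte-like cells Cox7a1 made up 8.45% of its set of 3 genes and Cox8b 2.60% of its pair.

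Lists of related genes were counted beside the chain. Of 50 genes for assembly and biogenesis outside the member rule, edgeR called 0 between genotypes in each of the 7 classes (3.14% of all genes in mEndo-like cells). In mEndo-like cells 5 reached an unadjusted p under 0.05 (2691 of 12964 genes did) and 1 was called by DESeq2 (383 of 20867 genes), and the median log2 fold change was 0.08 against 0.00 over all genes. In the other 6 classes 0 to 4 reached an unadjusted p under 0.05, with 0 calls by DESeq2. Genes at that p numbered 1453 of 11591 in cvEC-like, 1068 of 9606 in vEndo-like, 1769 of 16738 in cardiomyocyte-like, 1638 of 15027 in fibroblast-like, 596 of 8807 in epicardial-like and 462 of 9386 in immune-like cells, and DESeq2 called from 0 to 106 genes there. Of 13 genes of the citric acid cycle, edgeR and DESeq2 called 0 in mEndo-like cells, with 0 at an unadjusted p under 0.05 and a median of 0.16. Between cell types, 39 of the 50 were called higher and 3 lower in cardiomyocyte-like than in mEndo-like cells (median 0.89), and all 13 genes of the cycle were called higher (median 2.06), where 38.9% of all genes were called higher and 75.2% in either direction.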

How the data were processed

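The authors aligned the reads of each library to mm10 with Cell Ranger 7.1.0 and deposited filtered matrices of raw UMI counts per gene and cell barcode, and their own cell work used Seurat 4.3.0. Reads, ambient RNA and strand were not processed again here. The 4 libraries fall into control and Ets1 eKO by their labels, each a pool of 3 ventricles, so p-values measure the spread between pools. Members and lists were chosen with earlier results of these data known.

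Cells with 200 to 7000 genes and at most 20% mitochondrial UMIs were kept, and limits on globin (2%) and ribosomal (35%) UMIs were applied. Classes were set by summed marker UMIs per 10000 UMIs, with no member among the markers and no clustering. They are ranges of a score, so the number of cells near a limit was counted. No doublet caller was run. Cells whose 2 highest scaled marker scores lay within 0.1 of each other were left out. A cell with a wider gap kept the class of its higher list, even where it was positive for both. Doublets can therefore remain in the classes. No cell annotation from the study was used here, and differences from the study's cell groups may come from these rebuilt classes.

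UMIs were summed per library and class with Python 3.11.15, numpy 2.4.6, pandas 2.3.3 and scipy 1.17.1, and figures were drawn with matplotlib 3.10.9. Genes passing filterByExpr were tested in R 4.3.3 with edgeR 4.0.16 (TMM scaling, quasi-likelihood F test, Benjamini-Hochberg adjustment over all genes tested, threshold 0.05), Ets1 eKO against control within a class. Differences of the eKO effect between classes were fitted as class by genotype interactions with library as a term. Levels in cardiomyocyte-like and mEndo-like cells were compared by a class term with library as a term, over control and Ets1 eKO libraries together. The code was tested on simulated data. Shares are described without a test. The rule for naming genes takes Ets1, the 13 mitochondrial genes, members past the threshold, the 3 members of each complex with most UMIs over all classes and the isoform sets. Others are named as chosen after their values were seen.

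The alternatives tried were total count scaling, DESeq2 1.42.0, no filter on low counts, the replicate number as a block and leaving out each library. Others were no mitochondrial limit or a limit of 10%, nuclear genes only, and only cells of at least 3000 UMIs. In another, cells with 2 close marker scores were kept in the class of the higher list. Gene positions are from GENCODE M21 on GRCm38 and promoters from RefSeq.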

Additional observations from a re-analysis of the deposited data

Results flagged for a closer look

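The effect of the Ets1 eKO on Cox6b2 differed between mEndo-like and fibroblast-like cells of the same libraries. That effect did not pass the test against cardiomyocyte-like cells (log2 difference 0.85, SE 0.21, adjusted p = 0.20 by edgeR quasi-likelihood with Benjamini-Hochberg adjustment). It was larger in mEndo-like than in fibroblast-like cells by 0.98 on the log2 scale (SE 0.18, adjusted p = 0.0181 for the interaction by edgeR quasi-likelihood with Benjamini-Hochberg adjustment, from 0.000188 to 0.303 over the alternatives). The adjusted p was 0.0533 without Ets1 eKO replicate 2 and 0.303 by DESeq2.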

How the results depend on the processing

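Results are given as numbers of members called per class, and then as log2 ratios or medians. Where a value moved, the cause was not tested.

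In mEndo-like cells the count of 1 became 3 with DESeq2 (383 of 20867 genes called) and 12 with no low-count filter (1208 of 20867), against 407 of 12964 in the fit reported first. In cvEC-like cells the count of 1 became 0 with DESeq2 (56 of 19509 genes), 2 with no filter (359 of 19509), 0 with a mitochondrial limit of 10% (53 of 11577) and 0 with the higher list kept (40 of 11723). In vEndo-like cells and in the difference of mEndo-like from cardiomyocyte-like cells, the count of 0 became 1 with no filter (236 of 17834 and 654 of 24959 genes), and in the difference from fibroblast-like cells the count of 1 became 0 with DESeq2 (81 of 23888).

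Leaving out 1 library gave counts from 1 to 9 in mEndo-like, 0 to 22 in cvEC-like, 0 to 3 in vEndo-like, 0 to 14 in cardiomyocyte-like, and 0 to 1 in fibroblast-like, epicardial-like and immune-like cells. For the differences it gave 0 to 1 against cardiomyocyte-like and 0 to 4 against fibroblast-like cells. All genes called in these fits numbered 225 to 570, 87 to 955, 84 to 126, 18 to 2066, 9 to 275, 19 to 62, 54 to 111, 17 to 304 and 239 to 898 in that order. The lone library of a group is then assumed to vary like the other group.

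The replicate number was fitted as a block. Samples with the same number share only that number, and their deviations correlated across genes with r from -0.19 in cardiomyocyte-like to 0.03 in epicardial-like cells (genes are not replicates). With the replicate block, mEndo-like cells gave 3 calls (883 of 12964 genes), and the block changed no other count of members by over 1.5 times. A crossed pairing, chosen after seeing the data, gave 4 calls in mEndo-like, 3 in cvEC-like, 1 in vEndo-like, 1 in cardiomyocyte-like, 3 in fibroblast-like, 0 in epicardial-like and 0 in immune-like cells, where 665, 492, 311, 217, 498, 40 and 44 of all genes were called.

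Of the shares, the mitochondrial ratio in cvEC-like cells moved from -0.30 to -0.34 with a limit of 10%, and in cardiomyocyte-like cells from -0.35 to -0.38 with no mitochondrial limit and -0.32 with a limit of 10%. In immune-like cells it moved from -0.23 to -0.17 with no limit and to -0.33 with cells of at least 3000 UMIs. In vEndo-like cells the mitochondrial ratio of -0.19 became -0.28 with no mitochondrial limit and lay between -0.280 and -0.218 over the alternatives that kept all libraries. The nuclear ratio in immune-like cells, 0.0168, ran from 0.00892 to 0.0450 over those. Leaving out 1 library gave ranges from -0.383 to -0.0253 for the mitochondrial ratio in vEndo-like, -0.37 to -0.33 in cardiomyocyte-like and -0.33 to -0.0893 in fibroblast-like cells, and of 0.15 to 0.25 for the nuclear ratio in epicardial-like cells. In immune-like cells the nuclear ratio ran from -0.0669 to 0.106 and reversed without control replicate 1 (-0.0669).

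Medians that reversed were the mitochondrial median without control replicate 1 in vEndo-like cells (0.0033, with a range of -0.135 to 0.0033 over the libraries left out), the mitochondrial median in fibroblast-like cells without control replicate 1 (0.0246) and without Ets1 eKO replicate 1 (0.0242, range -0.0737 to 0.0246), and the nuclear median without control replicate 1 in immune-like cells (-0.0395, range -0.0395 to 0.186). Without reversing, the mitochondrial median ran from -0.267 to -0.0795 in mEndo-like and from -0.271 to -0.0490 in cvEC-like cells when 1 library was left out. With all libraries kept, the mitochondrial median moved from -0.10 to -0.19 in vEndo-like and from -0.04 to -0.10 in epicardial-like cells with no mitochondrial limit (-0.12 with total counts in epicardial-like cells). In immune-like cells it moved from -0.14 to -0.0555 with no mitochondrial limit and to -0.227 with cells of at least 3000 UMIs. With nuclear genes only there is no mitochondrial value.

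Each group had 2 libraries, so a difference that missed the threshold is not shown to be absent. Genotype and pool cannot be told apart within a library, embryos were not sexed, and a share of UMIs is not an amount per cell. The epicardial-like and vEndo-like classes had the fewest cells (499 and 663), and Cox6b2 and Ndufa4l2 rest on fewer than 200 UMIs a library in the classes where they were called.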
